A study of Mus musculus with 7 samples.

Results

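The mouse miRNA hairpin mmu-mir-140 was examined across small RNA libraries of HL-1 cells. It is 1 of 1226 mouse hairpins on which tags (sequence reads with the number of times each occurred) were placed, and 1 of 662 that received at least 1 tag. The authors had mapped their tags to the miRBase release of the time. Hairpins absent from that release may therefore have had little chance of receiving tags. It was chosen because earlier work on these data had found most of its tags on the 3p arm, starting 1 nt after the annotated position. The overall shares of tags by arm and by 5′ start are therefore given as a description, without a test. Their differences between days and time courses were not used in that choice and were tested. All tags of every library were placed by their best ungapped match with at most 2 mismatches, and those of mir-140 were summed by arm, start, end and library.

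HL-1 is an established mouse line of atrial cardiomyocytes. Small RNA was sequenced after 1, 2, 3 and 4 days of culture, over which the cells pass from a sparse, non-beating state to a beating one. Days 1, 3 and 4 had 2 libraries each, and day 2 had 1. The study describes 2 independent runs of the time course. Replicate numbers 1 and 2 of the labels were taken as these runs and are called time course 1 and 2. The day 2 library is labelled replicate 2, whereas the study states that its repeat lacked day 2. The labels name no treatment or genetic change, so that groups differ in day and time course only, and all cells come from a single line. The libraries held 4945093 to 6899411 tags with a sequence, of which 99.5% to 99.8% were placed. Levels are given in CPM, the count of tags per 1000000 placed tags of a library. The line's muscle hairpins (mir-1a, mir-133a, mir-208 and mir-499) together reached 94044 ± 7765 CPM (SD, n = 7). Most of this was mir-1a-1-3p (64415 ± 7545) and mir-133a-1-3p (22380 ± 4248). mir-208a-5p had 2216 ± 971 CPM, whereas mir-499-5p had 6.63 ± 2.95 and mir-208b-3p 3.57 ± 1.07.

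A miRNA hairpin is cut by Drosha at its base and then by Dicer near its loop, and either strand of the resulting duplex can be loaded into an Argonaute protein. On the 3p strand the Dicer cut sets the 5′ start, and the Drosha cut sets the 3′ end before any trimming. Bases 2 to 8 of the loaded strand, the seed, pair with target mRNAs, so a start moved by a single base gives a different seed. mir-140 is best known from cartilage, where its strands are abundant in chondrocytes. Its host gene, Wwp2, encodes a ubiquitin ligase of the HECT family.

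In the annotation of GRCm38 the hairpin occupied chr8:107551244-107551313 on the plus strand, within Wwp2 (chr8:107436365-107558595, plus strand). The hairpin lay in an intron, chr8:107550136-107552276, of all 3 protein-coding transcripts that spanned it. This was the intron after exon 16 of Wwp2-201, a transcript of 24 exons. It also lay inside the single exon of Wwp2-206, a transcript with a retained intron (chr8:107550895-107553547). No deposited tag matched the opposite strand of the hairpin. The study examined opposite-strand tags as a separate set, and nearly all deposited tags were placed in sense. This count therefore sets no limit on antisense RNA. The intervals given with single libraries treat each tag as an independent draw and cover no variation between cultures. Reads are not independent molecules, so these intervals may be too narrow even for counting error.

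The sequences below are the annotated miR-140-3p of RefSeq and deposited tags picked to show the main starts of each arm. They are shown because the start decides the seed, which is in capitals. Numbers in brackets are the first and last hairpin position, counted from 1 at the hairpin's 5′ end. Commoner tags that repeat a start are left out, such as those of positions 46 to 66 (8.84% of the 3p arm).
miR-140-3p as annotated (45 to 65): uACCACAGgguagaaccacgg
miR-140-3p, commonest tag (46 to 67): aCCACAGGguagaaccacggac
miR-140-3p, 1 base longer (46 to 68): aCCACAGGguagaaccacggaca
miR-140-3p from the annotated start (45 to 67): uACCACAGgguagaaccacggac
miR-140-3p from the next start (47 to 68): cCACAGGGuagaaccacggaca
miR-140-5p, commonest tag (6 to 27): cAGUGGUUuuacccuaugguag
miR-140-5p, 1 base longer (6 to 28): cAGUGGUUuuacccuaugguagg
The commonest 3p tag lay at chr8:107551289-107551310 and the commonest 5p tag at chr8:107551249-107551270.

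The 3 starts of the 3p arm gave 3 different seeds. The search for shared seeds covered the 1738 mature miRNAs of the RefSeq table, which is not complete and has no entry for miR-140-5p. None of them had the seed CCACAGG of the commonest tag, and none had the seed CACAGGG of the tags from position 47. The annotated seed ACCACAG was shared with 1 other miRNA, miR-497b, whose hairpin received 0 tags. A hairpin that the authors' miRBase release lacked could not be told apart from one without expression. The seed AGUGGUU of miR-140-5p was shared with miR-876-3p, whose hairpin received 45 tags on both arms together. They are shown for comparison with the seeds above.
mmu-miR-497b: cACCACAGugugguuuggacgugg
mmu-miR-876-3p: uAGUGGUUuacaaaguaauuca

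The hairpin gave 209323 tags of 465 distinct sequences, none of them tied with another hairpin. Of these, 194479 tags of 337 sequences lay on the 3p arm and 14844 tags of 128 sequences on the 5p arm. The hairpin contributed between 0.443% and 0.652% of the placed tags of a library. There were 10.4 to 23.5 tags of the 3p arm for each tag of the 5p arm.

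miR-140-3p was present at 4111 CPM in time course 1 and 4413 in time course 2 at day 1. At day 2 it stood at 4660 CPM in the single library. At day 3 the values were 4283 and 4984 CPM, and at day 4 they were 4193 and 6253, with time course 1 first. Within time course 1 the 3 libraries stayed close to each other (4196 ± 85.9, SD, n = 3), and the day 4 library of time course 2 was the highest of the 7. The values of days 1, 3 and 4 overlapped.

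miR-140-5p had 318 and 423 CPM at day 1 and 428 at day 2. It had 403 and 350 CPM at day 3, and 378 and 266 at day 4. Time course 1 was lowest at day 1, whereas time course 2 was lowest at day 4, in the same library that was highest for the 3p strand.

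**Figure D1:**
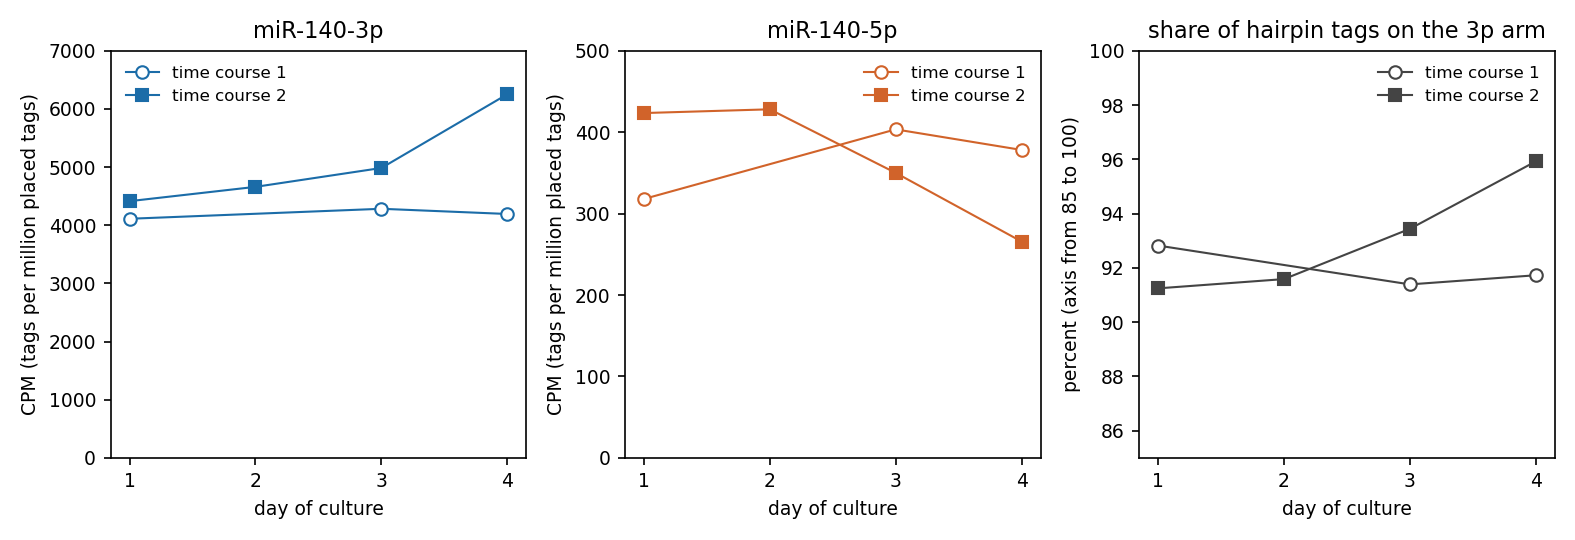
Level of miR-140-3p (left) and miR-140-5p (middle) in CPM, and the percentage of hairpin tags on the 3p arm (right, axis from 85 to 100), against day of culture. Each point is 1 library, open circles are time course 1 and filled squares time course 2. In time course 2 the 3p level went from 4413 to 6253 between day 1 and day 4 and the 5p level from 423 to 266, whereas in time course 1 the values were 4111 and 4193 for 3p and 318 and 378 for 5p.

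Whether the level of either strand differed between early and late culture was tested with edgeR's quasi-likelihood test on the counts of 779 arms. Counts were scaled between libraries, which removes a change shared by most miRNAs. The study reports a general rise in miRNA abundance over the culture, measured by qPCR. The log2 fold changes below are therefore relative to the other miRNAs, and a change in level per cell was not tested. Relative to day 1, miR-140-3p had a log2 fold change of 0.44 (SE 0.30) at day 4, with Benjamini-Hochberg adjusted p = 0.657 in edgeR. miR-140-5p had -0.06 (SE 0.35), with adjusted p = 0.993 in edgeR. At day 3 the log2 fold changes from day 1 were 0.27 (SE 0.30, edgeR adjusted p = 0.945) for 3p and 0.17 (SE 0.35, edgeR adjusted p = 0.976) for 5p. Neither strand passed the threshold of 0.05 in these comparisons. No arm of the 779 did (0% for day 4 and 0% for day 3 against day 1), although 80 and 39 arms had an unadjusted p under 0.05, and DESeq2 called 16 and 9 arms. With the time course as a block, edgeR called 27 and 11 arms, again without miR-140. The value for miR-140-3p at day 4 rested on 1 library, since the log2 fold change was 0.11 without the day 4 library of time course 2 and 0.73 without that of time course 1.

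The time courses themselves were compared with day in the fit. miR-140-3p was higher in time course 2 by a log2 fold change of 0.33 (SE 0.21, edgeR adjusted p = 0.364), and miR-140-5p differed by -0.07 (SE 0.27, edgeR adjusted p = 0.921). The value for miR-140-3p was 0.13 without the day 4 library of time course 1 and 0.14 without that of time course 2. Among all arms 8.73% were called in this comparison, and neither strand of mir-140 was among them. That share is not firm, as the 68 calls fell to 9 without the day 1 library of time course 1, to 15 without the day 4 library of time course 2, and stood at 18, 23 and 26 without day 3 of time course 1, day 1 of time course 2 and day 3 of time course 2, respectively.

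**Figure D2:**
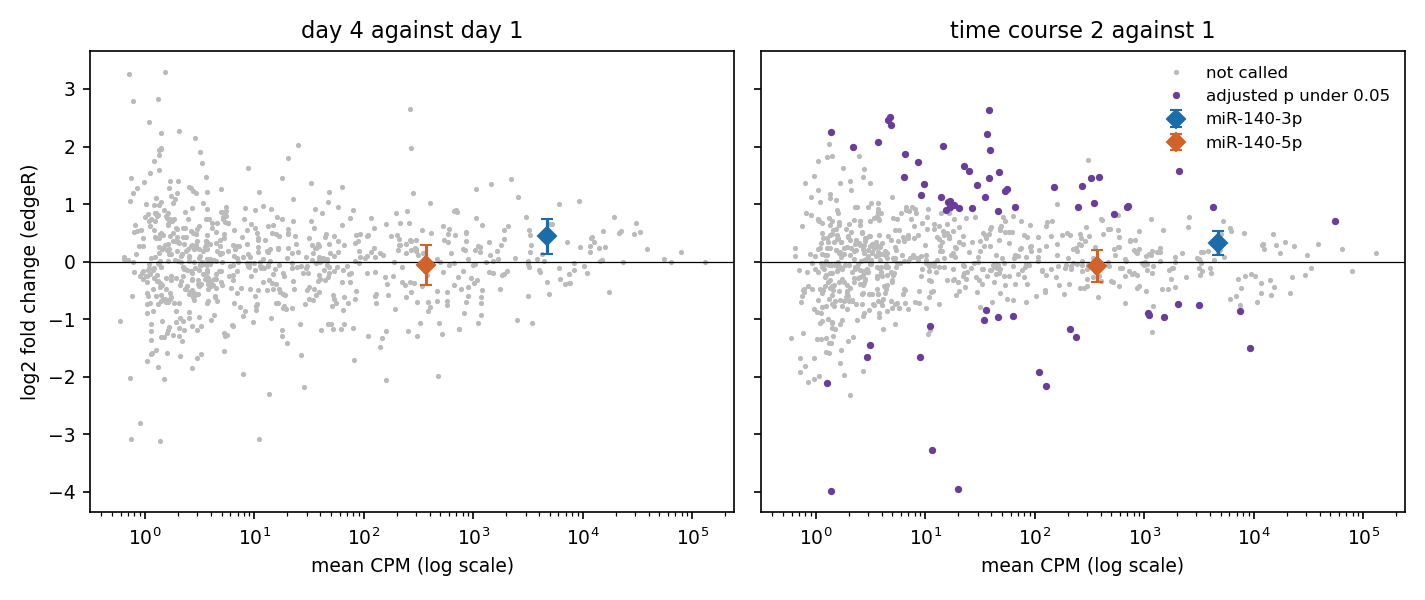
Log2 fold change of each of 779 arms (edgeR) against its mean level in CPM on a log scale, for day 4 against day 1 (left) and time course 2 against 1 (right). Diamonds with bars of 1 SE mark the strands of mir-140, at 0.44 and -0.06 on the left and 0.33 and -0.07 on the right. Purple points are arms with an adjusted p under 0.05, of which there are none on the left and 68 on the right.

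The 3p arm held 92.6% ± 1.68 of the hairpin's tags (SD, n = 7). By library the share was 92.8%, 91.4% and 91.7% on days 1, 3 and 4 of time course 1. In time course 2 it was 91.2%, 91.6%, 93.4% and 95.9% on days 1 to 4, and the last of these lay above all others. The interval of the single day 2 library was 91.2% to 91.9% (95%, Wilson). Across the 348 hairpins with at least 150 tags, the major arm held a median of 90.6% of tags, 176 hairpins had most tags on the 3p arm, and 154 were more one-sided than mir-140. Between day 4 and day 1 the 3p share of mir-140 differed by 0.48 on the log2 odds scale (SE 0.55, limma adjusted p = 0.890), in a test that called 1.28% of 235 hairpins (3 hairpins, and 6 with the time course as a block). The sign turned to -0.07 without the day 4 library of time course 2. Between time courses the share differed by 0.40 (SE 0.42, limma adjusted p = 0.651), where 1.7% of hairpins were called. This value ran from 0.056 without either day 4 library to 0.75 without either day 1 library.

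Tags of miR-140-3p started at position 46, 1 nt inside the annotated start, in 83.7% ± 1.00 of cases (SD, n = 7). This share ranged from 82.3% to 84.8% over the libraries. The annotated start, position 45, took 13.6% ± 1.17 of tags, and position 47 took 2.58% ± 0.257. These 3 starts were in the same order in all 7 libraries. The remaining starts were rare, with 103 tags at position 48, 69 at position 44 and 35 at position 43 over all libraries. Of the 503 arms with at least 150 tags, 186 had a smaller share of tags at their main start than the 83.6% of miR-140-3p in the merged libraries, and the median arm had 91.7%.

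The 5p arm started more uniformly. Position 6 took 97.7% ± 0.347 of its tags, with 97.2% in the lowest library and 98.1% in the highest. Position 5 took 1.55% ± 0.325 and position 7 took 0.579% ± 0.280. This 5′ start is on the side of the Drosha cut, and the start of miR-140-3p on the side of the Dicer cut.

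At their 3′ ends both strands were more variable than at their starts. miR-140-3p ended at position 67 in 55.2% ± 1.36 of tags and at position 68 in 21.4% ± 1.97. Positions 66 and 65 took 13.1% ± 0.693 and 5.83% ± 1.20, and position 69 took 2.61% ± 0.205. The annotated end is position 65, so that 5.81% of the merged tags ended there and 0.818% had both the annotated start and the annotated end. miR-140-5p ended at position 27 in 61.7% ± 3.07 of tags and at position 28 in 18.5% ± 1.98. Its shorter ends at positions 25 and 26 took 7.58% ± 1.15 and 5.79% ± 1.10. The share at the main end was above the median of all arms (44.9%) for both strands.

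**Figure D3:**
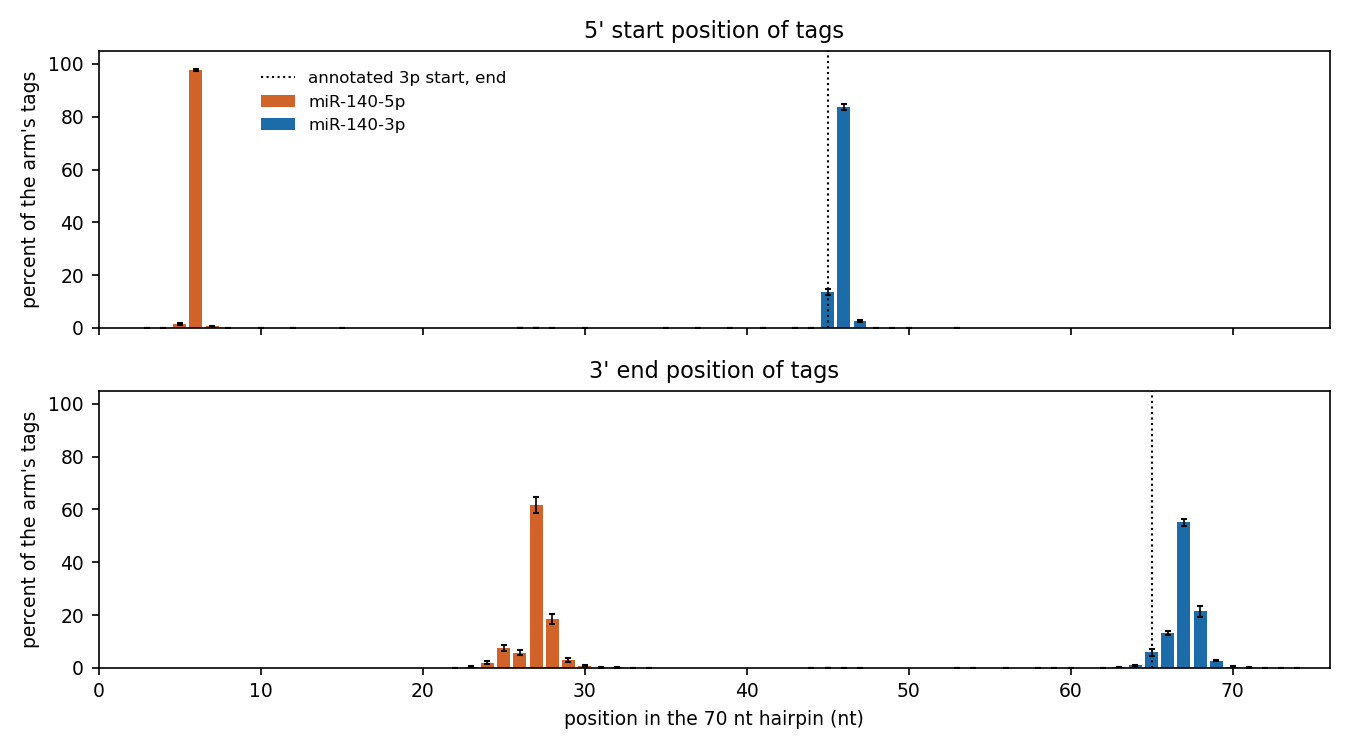
Percentage of each arm's tags that start (upper panel) or end (lower panel) at each position of the 70 nt hairpin, as the mean of 7 libraries with bars of 1 SD. Orange bars are miR-140-5p, blue bars miR-140-3p, and dotted lines the annotated start and end of miR-140-3p. Starts pile up at position 6 (97.7%) and position 46 (83.7%), and ends spread over several positions around 27 and 67.

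None of the shares tested between day 4 and day 1 passed the threshold. The share at the main start of miR-140-3p differed by 0.0036 on the log2 odds scale (SE 0.23, limma adjusted p = 0.999), where 0% of 346 arms were called and 33 had an unadjusted p under 0.05. The share at its main end differed by 0.12 (SE 0.19, limma adjusted p = 0.844) and that of miR-140-5p by 0.13 (SE 0.20, limma adjusted p = 0.844), with 0% of 346 arms called and 40 at an unadjusted p under 0.05. Leaving out 1 library gave 0.073 to 0.17 for the end of miR-140-3p, lowest without the day 4 library of time course 2. For miR-140-5p it gave 0.024 without the day 1 library of time course 2 and 0.23 without that of time course 1.

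The 3′ end of miR-140-3p differed with its 5′ start. Tags from position 46 ended on average at position 67.03 ± 0.0567 and those from position 45 at 66.73 ± 0.0679 (SD, n = 7). The difference was 0.292 ± 0.0482 nt, it was above 0 in 7 of 7 libraries, and it ranged from 0.219 to 0.349 nt (exact two-sided sign-flip permutation test, p = 0.0156, adjusted p = 0.0208 over 4 tests). The p is the smallest that 7 libraries can give. The shift was smaller than the 1 nt between the starts, so tags from position 45 were longer, at 22.73 ± 0.0679 nt against 22.03 ± 0.0567 nt from position 46. Tags from position 47, which were not in the test, ended at 67.4 ± 0.0824 and were 21.4 ± 0.0824 nt long.

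The spread of ends around position 67 also varied with the start. Among tags from position 45, 37.5% ± 2.54 ended at position 67 and 30.04% ± 0.919 at position 66. Among tags from position 46, 58.6% ± 1.59 ended at position 67 and 10.6% ± 0.877 at position 66. Tags from position 47 ended more often at position 68 (42.7% ± 3.88) than at position 67 (38.1% ± 4.19), with libraries that overlapped.

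**Figure D4:**
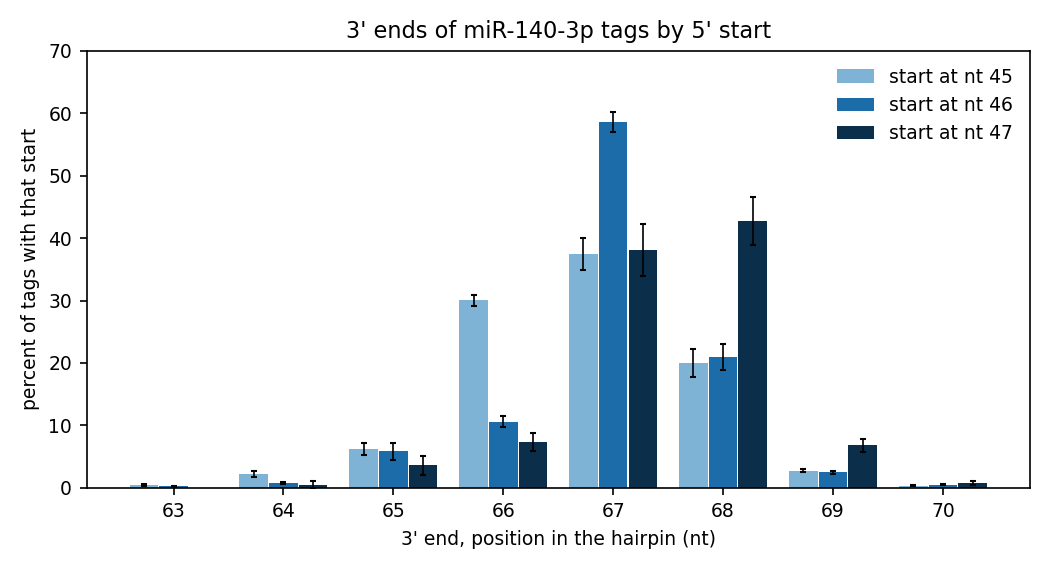
Percentage of miR-140-3p tags that end at each hairpin position, separately for tags that start at position 45 (light), 46 (medium) and 47 (dark), as the mean of 7 libraries with bars of 1 SD. Position 66 takes 30.04% of tags from position 45 but 10.6% of those from position 46, and position 68 takes 42.7% of those from position 47.

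Over all starts, miR-140-3p tags were 22.11 ± 0.0603 nt long and miR-140-5p tags 22.001 ± 0.0690 nt. The difference of 0.106 ± 0.0587 nt was above 0 in 7 of 7 libraries (exact two-sided sign-flip permutation test, p = 0.0156, adjusted p = 0.0208). Tags of 22 nt made up 54.2% ± 1.19 of the 3p arm and 62.1% ± 3.16 of the 5p arm.

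The hairpin was folded with RNAfold to place these ends on a predicted structure. The minimum free energy was -39.1 kcal per mol, 60 of 70 bases were paired, and the terminal loop held 3 bases. In the fold, position 46 paired with position 25 and position 45 with position 26. The commonest 5p end, position 27, therefore extended 2 bases past the partner of the commonest 3p start, 1 base past that of the annotated start, and 3 bases past that of position 47. At the base of the stem, position 6 paired with position 64, so that the commonest 3p end, position 67, extended 3 bases past it, and the annotated end 1 base.

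Mismatched tags were looked at next, since internal changes can come from RNA editing, variants or sequencing. A mismatch was found in 6.57% ± 3.16 of miR-140-3p tags and 3.85% ± 0.824 of miR-140-5p tags (SD, n = 7). For the 3p strand the values were 5.73%, 12.2% and 2.81% on days 1, 3 and 4 of time course 1, and 8.28%, 4.04%, 5.05% and 7.88% on days 1 to 4 of time course 2. No order by day was common to both. The 3p share was higher in 7 of 7 libraries, by 2.72 ± 2.91 percentage points (exact two-sided sign-flip permutation test, p = 0.0156, adjusted p = 0.0208), and by 1.81 points without the day 3 library of time course 1. That library also had the most mismatches over all tags, with 8.99% of tags against 5.03% to 7.70% in the other libraries.

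Mismatches lay mostly at certain bases of the tag. Of 13061 mismatched 3p tags, 98.0% had the change at the 3rd to 6th base from the last, as had 96.8% of 571 mismatched 5p tags. In tags of all other hairpins the corresponding figure was 95.6%. At the last 2 bases mir-140 had 0 mismatches among the deposited tags of either arm. Changes at the last base were handled apart in the authors' mapping, so this count sets no limit on such changes in the RNA. In all, 0.314% of the mismatches of other hairpins lay there. A comparison of terminal changes between the arms could therefore not be made. Changes in the seed were seen in 181 tags of miR-140-3p (0.0931%) and 12 tags of miR-140-5p (0.0808%).

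**Figure D5:**
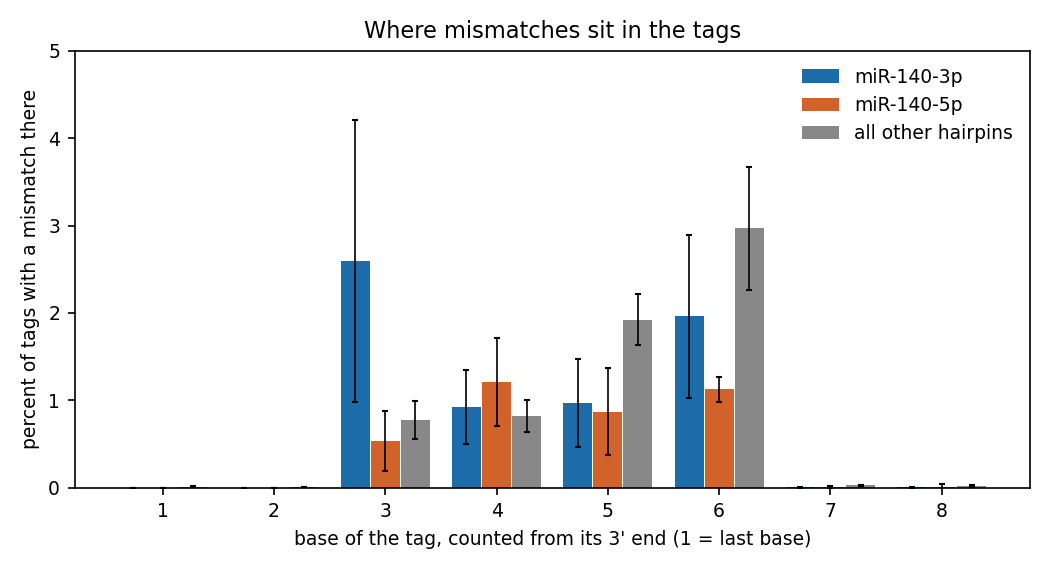
Percentage of tags with a mismatch at each base, counted from the 3′ end of the tag, for miR-140-3p (blue), miR-140-5p (orange) and the tags of all other hairpins (grey), as the mean of 7 libraries with bars of 1 SD. Mismatches lie mostly at the 3rd to 6th base from the end in each case. At the 3rd base miR-140-3p stands at 2.59% against 0.772% in other hairpins, and at the 4th at 0.922% against 0.823%. At the 5th and 6th base it is lower, at 0.968% and 1.96% against 1.92% and 2.97%.

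The commonest single change was G65A (hairpin base, position, tag base), in 2.40% ± 1.47 of the 3p tags that covered the position, from 1.06% to 5.43%. G64A followed with 0.944% ± 0.444 and A62G with 0.860% ± 0.581. The share with G65A varied with the end of the tag, as did that with A62G. Among tags from position 46, it was 4.35% ± 2.88 where the tag ended at position 67, which makes it the 3rd base from the last, and 0.449% ± 0.174 where the tag ended 1 base later. A62G was found in 1.53% ± 1.14 of tags that ended at position 67 and in 2 of 33722 tags that ended at position 68. The values of G65A and A62G were higher for end 67 in all 7 libraries, since the lowest (1.79% for G65A and 0.384% for A62G) exceeded the highest for end 68 (0.661% and 0.0189%). G64A showed no such gap, with 1.27% ± 0.752 at end 67 and 1.10% ± 0.545 at end 68. Whether the changes were in the RNA was not tested.

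In the order of levels, miR-140-3p ranked 43rd and miR-140-5p 143rd of the 503 arms with at least 150 tags. A tag counts once whatever its length. The 3 arms just above miR-140-3p were mir-351-5p (5017 ± 1625 CPM), mir-328-3p (4888 ± 2140) and mir-181a-1-5p (4741 ± 772), against 4700 ± 748 for miR-140-3p (SD, n = 7). Each was above miR-140-3p in 3 of 7 libraries. The 3 arms just below were mir-322-5p (4378 ± 638), mir-3102-3p (4248 ± 1337) and mir-133a-1-5p (4075 ± 543), and their ranges overlapped that of miR-140-3p as well. miR-140-5p (367 ± 59.6) stood between mir-324-5p (374 ± 106) and mir-1839-5p (364 ± 53.5), with mir-1249-3p (386 ± 248), let-7c-2-5p (387 ± 120), mir-676-3p (355 ± 74.4) and mir-532-3p (346 ± 114) beside them. The ranges of these 6 neighbours overlapped that of miR-140-5p.

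The arms whose levels varied most like miR-140-3p over the 7 libraries were mir-542-5p (Pearson's r = 0.97 of log2 CPM), mir-503-3p (0.96), mir-532-5p (0.94), mir-486-3p (0.94) and mir-542-3p (0.93), out of 502 arms. Spearman's rho was between 0.79 and 0.96, and without the day 3 and day 4 libraries of time course 2, the farthest from the median, r was between 0.82 and 0.97. For miR-140-5p they were mir-139-3p (r = 0.95), mir-362-3p (0.91), mir-497-5p (0.87), mir-497-3p (0.86) and mir-350-3p (0.86). Their rho was between 0.71 and 0.93, and r lay between 0.23 and 0.88 without the 2 farthest libraries. The libraries share their 2 time courses, and these values are the highest picked from many, so they are a description only.

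The strands of mir-140 were not alike in this measure. Their r was -0.65 (rho -0.11), and 446 arms were closer to miR-140-3p than its own 5p partner was. Without the day 3 and day 4 libraries of time course 2, r was 0.82 over the other 5 libraries. Without the day 4 library of time course 2 and the day 1 library of time course 1, the farthest for miR-140-5p, it was -0.38, so the sign depended on which libraries were left out.

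Other hairpins known from cartilage were compared from a list of 9 (mir-455, mir-675, mir-145, mir-199a-1, mir-199a-2, mir-146a, mir-27b, mir-365-1 and mir-365-2). Of their 18 arms with tags, 14 could be tested. None was called between days, beside 0% of all arms, and none between time courses, beside 8.73%. Median log2 fold changes were -0.13 for day 4 and -0.02 for day 3 against day 1, beside 0.0086 and -0.01 over all arms. mir-145-5p, better known from smooth muscle, held 129680 ± 9826 CPM and so nearly all of the list. mir-27b-3p stood at 2424 ± 357, below miR-140-3p. mir-455-5p and mir-455-3p, also known from chondrocytes, had 8.66 ± 5.71 and 3.75 ± 1.37 CPM, and both arms of mir-675 were below 1.

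The listed hairpins of endothelium, blood cells, fibroblasts, neurons and hepatocytes were low beside miR-140-3p, and no list covered smooth muscle. The summed level was 739 ± 169 CPM for mir-126 of endothelium (483 to 665 at day 1 and 871 to 922 at day 4), 55.4 ± 8.67 for the blood cell list, 32.02 ± 5.998 for fibroblasts, 24.96 ± 6.77 for neurons and 2.94 ± 1.47 for the hepatocyte hairpin mir-122. None of their arms was called between days. Between time courses 2 of 13 muscle arms (mir-1a-2-3p and mir-208a-3p) and 1 of 4 neuronal arms (mir-124a-3-5p) were called. Among all arms 8.73% were called in that comparison, and those calls varied with the libraries left out. The called arms are named here after their values were seen. mir-124a-3-5p was near the floor, at 1.38 ± 1.92 CPM, with 0 in the lowest library. The part of other cells in the level of miR-140 was not tested, and fewer cells with a miRNA cannot be told apart from less of it per cell.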

How the data were processed

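Small RNA below 70 nt of HL-1 cells was made into 7 libraries and sequenced on the SOLiD platform. Per the labels and the study's methods, the authors mapped tags to miRBase hairpins with 18 nt anchors, accepted isolated mismatches only at low quality values, took a base change as genuine only with a pair of adjacent colour calls of high quality, and handled changes at the last base apart. The deposited values are raw counts of distinct tag sequences per library (mm9 for the genome, per the labels). This handling bears on which mismatches and 3′ ends are seen.

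Tags of at least 16 nt were placed on 1226 hairpins (1178 of GENCODE, 48 more of RefSeq, both GRCm38) with at most 2 mismatches and up to 4 bases past the hairpin. Uncalled bases at a tag's end were not counted as changes, and 101 lines (293 tags) without a sequence were left out. Copies of a hairpin were counted under the lowest copy number and other ties divided equally (1.82% to 2.59% of tags). Placing was tested on simulated tags, and the fits on simulated counts.

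Levels were compared with edgeR 4.0.16 (quasi-likelihood, TMM, filterByExpr, 7 libraries with day as a factor, which leaves 3 residual degrees of freedom). The lone day 2 library is assumed to vary like the others. Time courses were compared with day in the fit. Shares were compared with limma 3.58.1 on log2 odds (pseudocount 0.5, at least 50 tags in every library and 10 of each outcome). Thresholds were Benjamini-Hochberg adjusted p of 0.05. Differences within libraries used exact sign-flip permutation, which takes the libraries as independent. Replicate numbers were taken as independent runs of the time course, which the labels do not state. Deviations from the day means correlated between libraries of 1 number (r = 0.395, 0.400 and 0.374 over 779 arms), so a fit with a replicate block was run too. Other tools were R 4.3.3, DESeq2 1.42.0, Python 3.11.15 and RNAfold 2.7.2. Alternatives were DESeq2, library totals, no filter on low counts, day as a number, exact tags, no tied tags, tags of 18 to 26 nt, other share settings and leaving out each library.

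The named arms were both strands of mir-140, the 5 arms most like each, the 3 above and below each in level, miRNAs with a shared seed, a cartilage list and lists of markers of muscle, endothelium, blood cells, fibroblasts, neurons and hepatocytes. The hairpin and these lists were chosen with earlier results of these data known.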

Additional observations from a re-analysis of the deposited data

Results flagged for a closer look

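Between day 1 and day 4 some values of mir-140 moved in opposite directions in the time courses, each with 1 library per day, and the difference between the time courses was not tested. The level of miR-140-5p differed by 60.2 CPM in time course 1 and by -158 in time course 2. The share of tags on the 3p arm differed by -1.09 percentage points in time course 1 and by 4.68 in time course 2. The share of miR-140-3p tags at position 46 differed by 0.206 and -0.158 percentage points, which is within the Wilson intervals of the libraries (84.2% to 85.05% and 84.3% to 85.3% in time course 1, 82.0% to 82.9% and 81.9% to 82.7% in time course 2). The level of miR-140-3p was higher at day 4 in both, by 1.02-fold and 1.42-fold.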

How the results depend on the processing

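In 137 alternative fits of the 11 differences between days or time courses, no value of mir-140 passed the threshold (lowest adjusted p = 0.371, edgeR, limma or DESeq2), and 125 kept their direction. The log2 fold change of miR-140-5p at day 4 was 0.00024 with exact tags only and -0.31 to 0.22 when single libraries were left out. At day 3 it was -0.021 with day as a number and -0.055 to 0.46 when libraries were left out, and between time courses it was 0.0021 without the filter on low counts and -0.40 to 0.083 with libraries left out. Leaving out libraries gave -0.066 to 1.02 log2 odds for the arm share at day 4 and -0.13 to 0.14 for the main start of miR-140-3p. The replicate block changed no call of mir-140 (log2 fold change of miR-140-3p 0.42 at day 4, edgeR adjusted p = 0.379). Over all arms the block gave 27 calls at day 4, 11 at day 3 and 6 for the arm share, in place of 0, 0 and 3 (the last of these chosen after seeing the data), and DESeq2 gave 16 and 9. Calls between time courses numbered 30 with library totals, 32 without day, 41 with exact tags and 9 to 78 with single libraries left out, all chosen after seeing the data. Library totals moved the median log2 fold change of all arms to -0.14 at day 4 and -0.17 at day 3, so that small shifts in level depend on the scaling. The differences within libraries kept their direction and their call under each alternative run. Leaving out single libraries could not have changed this, since the called differences were above 0 in 7 of 7 libraries. Each of those runs had to give the smallest p possible (exact two-sided sign-flip permutation test, p = 0.03125, adjusted p = 0.0417). They are therefore no test of how stable these calls are.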

Other observations

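Only 62 tags of 27 sequences (0.0296%) started more than 3 nt from position 45 on the 3p arm or from position 6 on the 5p arm. Of these, 29 started at position 49 and 9 at position 50, within the 3p strand. Tags that span the loop were also among them. A further 257 tags (0.132% of the 3p arm) ran past the 3′ end of the hairpin, at positions 71 to 74.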
